A study of Drosophila melanogaster with 4 samples.

Results

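The replication-dependent histone genes of *Drosophila melanogaster* lie in a tandem array on chromosome arm 2L, and 87 of the 4198 peaks called for tagged Notch fell on that stretch. They run from 21405851 to 21543548 on release 5 of the genome. The stretch was chosen by the density of the called peaks themselves, so that density is not a result. They made up 2.07% of the list and 13.2% of the peaks on 2L. The samples were whole larvae of the Notch-GFP strain at the wandering third-instar (L3) stage, of unknown sex, which carried a transgene with the Notch genomic coding region, and both groups carry the genotype label PBac{y[+]-attP-3B}VK00033. Chromatin precipitated with the GFP antibody ab290 (2 libraries) was sequenced together with input DNA (2 libraries). Growth protocols in the labels name y; bw cn sp flies, while the strain label is Notch-GFP, and the labels do not say how these relate.

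A single list of called regions was deposited, with a start, an end and a score for each peak. It holds no value per library, so no peak has a replicate error, the depth is unknown, and no test was made. The score is the authors' MACS peak score, for which no source used here states the statistic or the scale. It was used only to rank and describe peaks within the list. The larvae were taken whole, so the list averages over tissues.

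Each repeat of the array holds a copy of the genes for the linker histone H1 (His1) and the core histones H2A, H2B, H3 and H4 (His2A, His2B, His3, His4), which package DNA into nucleosomes. The genes are transcribed when cells replicate their DNA, in a nuclear structure called the histone locus body. His3 and His4 are transcribed away from each other from a shared promoter, as are His2A and His2B, and the promoter between His3 and His4 holds GA-rich sequence bound by the zinc finger protein CLAMP. Animals carry many more copies than the assembled genome holds, and the copies are nearly identical. No source used here states how reads that match several copies were treated, and peaks over different copies are not independent observations.

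The array held strong and weak peaks with nothing between. Strong peaks, those with a score of at least 50, numbered 22 and weak peaks 65. The weak peak just below the divide scored 28.2, and the strong peak just above it scored 50.9. Among the 571 other peaks of 2L, 112 had scores in that empty range. The divide was chosen with earlier results of these data known, and peaks over repeated copies are not separate observations. The gap and the medians of each class are therefore description only. Strong peaks had a median score of 67.2 (quartiles 62.9 and 71.0) and weak peaks 15.0 (quartiles 11.6 and 18.9), and other peaks of 2L had a median of 26.2 (quartiles 14.6 and 60.7). Array peaks were close together, with a median of 495.5 bp from the end of a peak to the start of the next, against 16204 bp for the rest of the arm, which restates how the stretch was picked.

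At like scores the array peaks were wider than the rest of 2L in their medians. Strong peaks had a median width of 1212.5 bp (quartiles 1065.5 and 1284.8 bp), against 744.5 bp (558.5 and 1111.8 bp) for the 62 other 2L peaks with scores in the same range. Weak peaks had a median width of 456 bp (328 and 610 bp), against 350.5 bp (265 and 481 bp) for the 284 other 2L peaks in theirs. The quartile ranges overlap in both comparisons. No test was made, since peaks of repeated copies do not count as separate observations.

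**Figure D1:**
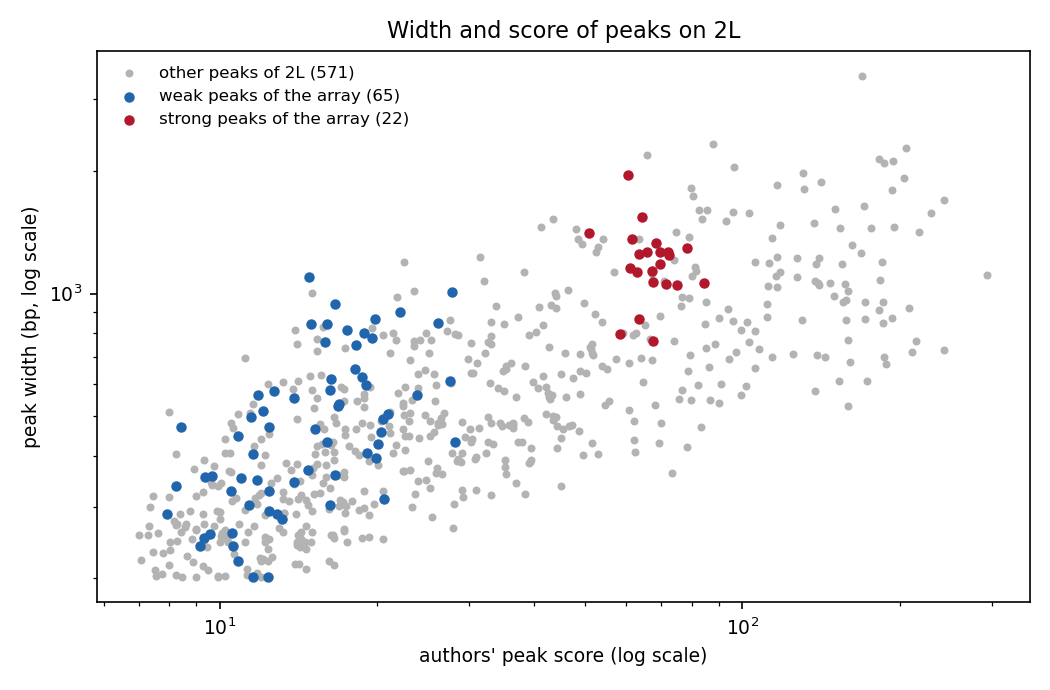
Score (log scale, no unit) and width (bp, log scale) of each peak on 2L, with 22 strong and 65 weak peaks of the array in colour and the 571 other peaks of the arm in grey. The array peaks form separate groups on either side of the empty range from 28.2 to 50.9, which holds 112 of the other peaks.

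Positions of the genes came from a table on release 6 of the genome, whereas the peaks are on release 5. Release 6 positions were laid over the peaks without conversion, under the premise that this stretch of 2L hardly moved between the releases, and every placement on a gene rests on it. The premise was examined in a pair of ways. The first needs no common position, because it compares distances within the peak list with distances within the gene table.

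The table has 23 repeat units, each starting with His1 and followed by His2B, His2A, His4 and His3. Neighbouring His1 copies lay a median of 5045 bp apart in the table (21 intervals of a single unit, from 4843 to 5151 bp). Neighbouring strong peak centres lay a median of 5036.75 bp apart (18 such intervals, from 4517 to 5178.5 bp). The longest steps matched as well, but smaller departures from the usual length did not all match. The 21 intervals between strong centres were set in order against the intervals between the midpoints of the His4-His3 pairs, leaving out each of the 23 pairs in turn. The mean absolute difference was smallest, at 107 bp, when the pair of unit 3 was left out, and the next best choice gave 348.5 bp. The median absolute difference was 78 bp with unit 3 left out and 81 to 105.5 bp for the other choices. Agreement of most single intervals therefore does not set this match apart from the others. With unit 3 left out, 13 of 21 intervals differed by at most 100 bp, and the largest difference was 327 bp, between units 20 and 21. The short steps of the table were not all short between strong centres. From unit 19 to 20, 20 to 21 and 21 to 22 the pairs were 4843, 4843 and 4841 bp apart. Between strong centres these steps were 4517, 5170 and 4981 bp. From unit 4 to 5 the distances were 4887 bp for the pairs and 4755 bp for the strong centres.

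With that pair left out, the longest steps fell at the same units in both series. Between units 5 and 6 the strong centres were 14.4 kb apart and the His4-His3 pairs 14.2 kb. Between units 2 and 4, on either side of the unit without a strong peak, the distances were 10.2 kb and 10.1 kb. The latter was made by leaving out the pair between them, a choice made for the smallest mean difference. That step was therefore fitted and is not separate evidence of a match. The place of the step between units 5 and 6 also entered that choice. Leaving out any of units 6 to 23 gave a largest difference of at least 9527.5 bp. That place is therefore not separate evidence either. From unit 22 to unit 23 the distances were 6.62 kb and 6.52 kb. These distances give the order of the units but not where within a unit the strong peaks lie.

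**Figure D2:**
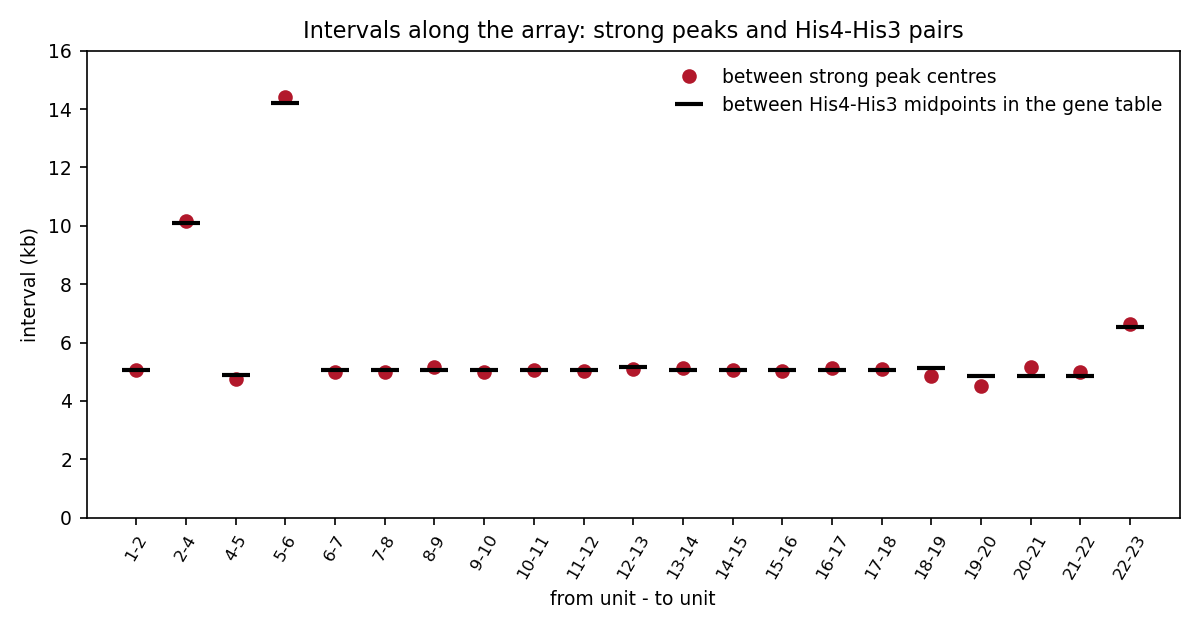
Interval in kb between neighbouring strong peak centres (red points, release 5) and between the midpoints of the corresponding His4-His3 pairs (black bars, release 6), in order along the array. The points follow the bars through the steps of 10.2, 14.4 and 6.62 kb. At the step of 10.2 kb the bar was made by leaving out a pair for the best match. The place of the 14.4 kb step also entered that choice.

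The second way used the peaks of 2L outside the array. Of the 571 peaks, 191 spanned the end of a gene in the table when no shift was applied, more than at any other shift up to 5 kb in steps of 250 bp. At shifts of 2000 bp or more in either direction the number was 66 to 110. Among the 47 peaks within 1 Mb of the array it was 22 at 0, and 22 also at 250 and at 750 bp, against 5 to 10 at 2000 bp or more. The neighbourhood of the array therefore does not resolve a shift of up to 750 bp, and with a shift of 750 bp only 1 of 22 strong centres would fall on the His4-His3 pair.

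**Figure D3:**
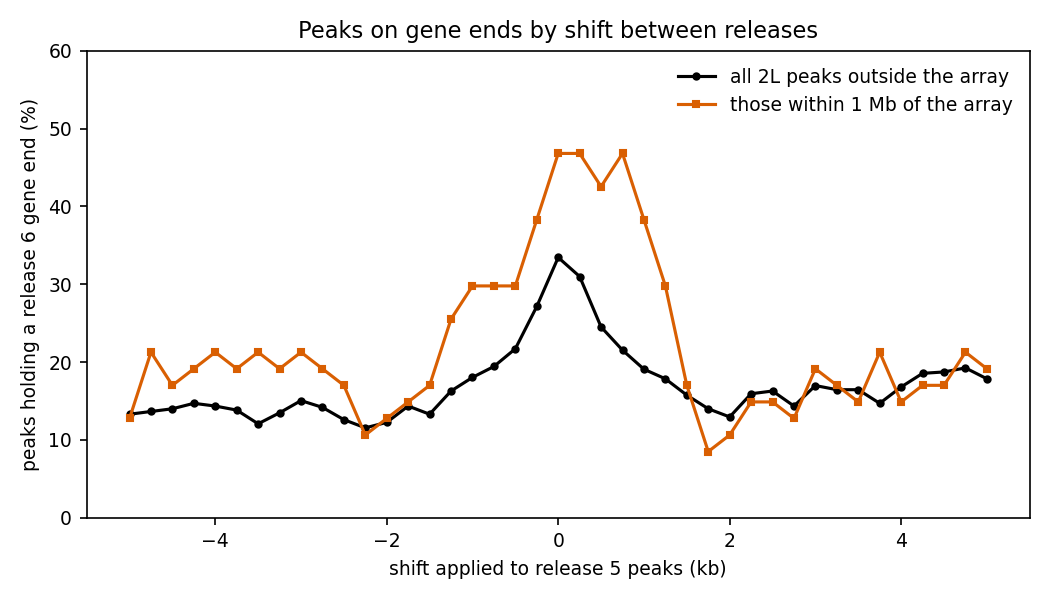
Percent of release 5 peaks that span the end of a release 6 gene, against the shift in kb applied to the peaks, for the 571 peaks of 2L outside the array (black) and the 47 of them within 1 Mb of it (orange). The black curve is highest at 0, and the orange curve has equal highest values of 46.8% at 0, 250 and 750 bp.

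Folding the peaks on themselves, which uses release 5 positions alone, showed where weak peaks lay between strong ones. In the 18 intervals of a single unit there were 47 weak peaks, a median of 3 per interval and from 1 to 4. Their centres lay between 37.7% and 80.1% of the way from a strong centre to the next. They fell into groups: 5 lay from 30 to 40% of the way and 15 from 40 to 50%, but only 1 from 50 to 60%. A further 11 lay from 60 to 70%, 14 from 70 to 80% and 1 from 80 to 90%. No weak centre lay in the first 30% or the last 10% of an interval. That range includes the flanks of the strong peaks themselves. Neighbouring peaks were at least 52 bp apart, so no weak centre could fall on those flanks.

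With unshifted gene positions, the strong peaks lay on His4 and His3. All 22 strong centres fell within the span from the outer end of His4 to the outer end of His3, and each of the 22 peaks held the inner ends of both genes, where the shared promoter lies. A pseudogene takes the place of His4 in unit 23, and it was counted as His4 there. In the 21 other units with a strong peak, the centre lay a median of 56.5 bp from the midpoint between the genes, and 20 of 21 lay within 150 bp of it. The exception was unit 20, whose centre lay 442.5 bp from it on the side of His4. In units 19 to 22 the table gives His4 a length of 526 or 528 bp and a gap of 25 bp to His3, against 412 or 413 bp and a gap of 181 to 188 bp in units 1 to 18, which moves the midpoint used there.

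The median edges of the strong peaks lay beyond the outer ends of both genes, but many single peaks stopped inside a gene. Their right edges lay a median of 22 bp beyond the outer end of His3 (quartiles 67 bp inside it and 47 bp beyond it, n = 21 peaks), within 150 bp of it in 19 of 21. Their left edges lay a median of 112 bp beyond the outer end of His4 (quartiles 135 bp beyond it and 16 bp inside it). The median share of each gene inside the strong peak was 100% for His4 (lowest 68.8%) and 100% for His3 (lowest 56.3%). These medians were taken for each gene on its own. They do not mean that most peaks covered both genes in full.

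**Figure D4:**
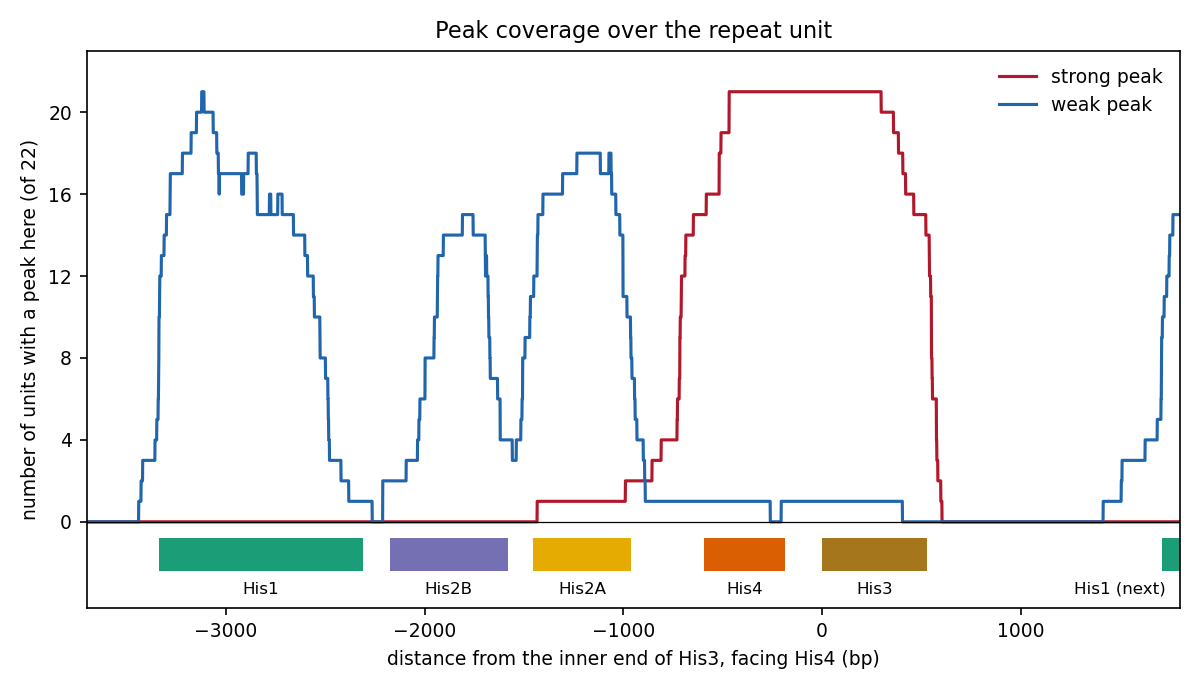
Number of units (of the 22 with a His4 gene) in which a strong (red) or weak (blue) peak covers each position, against the distance in bp from the inner end of His3, with unshifted release 6 gene positions; the gene bars below are those of unit 13. Strong peaks cover the inner ends of His4 and His3 in 21 units, falling to 15 units at -600 bp and 15 at 500 bp. Weak peaks lie over His1, His2B and His2A, and the stretch from His3 to the next His1 is almost free of peaks.

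Among the strong peaks the scores ran from 50.9 to 84.2. The highest was 84.2, in unit 17, from 21509501 to 21510564. Unit 10 followed with 78.3 (21473880 to 21475170) and unit 18 with 75.1 (21514595 to 21515644). The lowest lay at the ends of the array or on the widest peak. Unit 1 had 50.9 (21419274 to 21420682), unit 23 had 58.4 (21540872 to 21541668) and unit 20 had 60.4 (21523519 to 21525474). The last is the widest peak of the array, at 1956 bp, and it ran on over the His2A gene of its unit. Without a replicate, whether any of these scores differ is not known.

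Unit 3 was the only unit without a strong peak. Its His4-His3 pair carried a peak with a score of 27.6 (21430050 to 21430659), the third highest among the weak peaks. A second weak peak, with a score of 17.5, ended 55 bp before it. Together these spanned 1477 bp, within the range of strong peak widths (765 to 1956 bp). The place of His2A in unit 3 is a pseudogene, as it is in units 1 and 5, which had strong peaks with scores of 50.9 and 64.1.

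The weak peaks lay over the other genes of the unit. Of the 65 weak centres, 27 fell in His1, 18 in the place of His2A and 15 in His2B. Of the 5 others, both peaks on the His4-His3 side of unit 3 are described above, and 1 lay on the His4 pseudogene of unit 23 with the highest weak score of the array, 28.2 (21539007 to 21539438). The remaining 2 lay outside the 23 units.

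His1, the linker histone gene, had a weak peak in all 23 units, and in 4 units it was split into 2 peaks. Those 27 peaks had scores from 9.66 to 27.8 with a median of 16.6. The highest was in unit 22 (21531210 to 21532215, score 27.8), the second highest of the weak class. Peaks on His1 began close to the end of the gene that faces the preceding His3. The left edge lay a median of 1 bp outside that end (quartiles 12.5 bp outside and 46.5 bp inside), and it was within 50 bp of it in 13 of 23 units. In all 23 units the last of these peaks stopped short of the other end of the gene, by a median of 248 bp.

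His2A and His2B share a promoter like His3 and His4, and in 14 of 23 units each of their places held the centre of its own weak peak. In 3 units, 1, 18 and 22, a single weak peak reached over both. In unit 20 His2A lay under the strong peak. The 18 weak peaks in the place of His2A had a median score of 13.9 (from 7.94 to 20.6), and their median width was 469.5 bp. The 15 on His2B had a median score of 11.8 (from 8.23 to 20.65), and their median width was 337 bp. The quartile ranges of the scores on His1 (12.4 to 19.7), His2A (11.9 to 18.4) and His2B (10.1 to 14.9) overlap, so no order among them is drawn. Only 26.1% of the bases between His2B and His2A lay in a peak, whereas 100% of those between His4 and His3 did.

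Coverage by peaks differed between the segments of the unit. The share of bases inside a peak was 91.9% in His3, 83.0% in the place of His4, 78.6% in the place of His2A, 60.9% in His1 and 42.2% in His2B. Between His4 and His3 it was 100%, between His2A and His4 38.3%, near the value of His2B, and between His2B and His2A 26.1%. It was 2.89% in the 21 stretches from His3 to the next His1, which have a median length of 1182 bp, and 2.04% in the short stretch between His1 and His2B. No centre of any member lay in either of these last segments. Centres of 64 of 65 weak peaks (98.5%) lay inside an annotated gene or pseudogene, but only 8 of 22 strong centres (36.4%) did, since 14 lay between His4 and His3, against 69.0% of the 571 other peaks of 2L. A pair of longer stretches without histone genes, of 10982 bp before unit 1 and 10336 bp after unit 5, also held no peak centre, although peaks of the neighbouring genes reach a short way into them. Whether those stretches hold sequence to which reads can be assigned was not tested.

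Of the 111 histone genes in the array, 104 overlapped a peak: all 23 copies of His1, all 23 of His3, all 22 of His4, 19 of 20 of His2A and 17 of 23 of His2B. Over 2L outside the array, 12.5% of all genes overlapped a peak, and 3.09% of protein-coding genes of at most 1100 bp did, a length near that of His1. The array was picked for its peaks, so nothing is read from that difference. The strong peak was the main one over 22 copies of His3, 21 of His4 and 1 of His2A. The background for a peak with a score of at least 50 was 5.61% of all 2L genes and 1.55% of the short protein-coding ones.

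The 7 copies without a peak were found in 6 units. His2B had none in units 3, 5, 11, 19, 20 and 21, and His2A had none in unit 19. Units 19 to 21 are the 3 short units of the table, each 4843 bp long. These were singled out after their values had been seen. They held 4 weak peaks in all, against 52 in the 17 units of 5043 to 5151 bp. Their strong peaks scored 61.4, 60.4 and 69.5, inside the range of the longer units except for the second (60.9 to 84.2, n = 16 peaks).

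Histone pseudogenes also met peaks, in 6 of 8, against 12.5% of all 2L genes outside the array. They lie in the stretch picked for its peaks, so nothing is read from that difference. The 3 pseudogenes that take the place of His2A had highest scores of 15.0, 17.5 and 64.1, the last because the strong peak of unit 5 reaches into it. Before the first unit lie 3 pseudogenes, of which His-Psi:CR31754 overlapped the first and narrowest member, a peak of 201 bp with a score of 11.6 (21405851 to 21406051). The last member, with a score of 15.9 (21542789 to 21543548), overlapped His-Psi:CR31614, the pseudogene after unit 23. The nearest peak before the array was 60.9 kb away with a score of 23.1, and the nearest after it was 16.2 kb away with a score of 16.5. The latter distance is close to the median gap of 16204 bp between the other peaks of 2L.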

How the data were processed

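The file is a peak list on FlyBase release 5 with MACS as its source, per the file headers. Per the submitters' processing notes, CASAVA 1.7.0.2 and 1.7.0.3, BWA, MACS2 and build BDGP5 were involved; no settings are given. Its score is the authors' deposited peak score. The sources used here state neither the threshold nor how replicates and input entered the calling. A gene without a peak is not shown to be unbound.

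Members were the peaks centred in 3 adjoining windows of 50 kb on 2L, strong from a score of 50. Members, gene lists and settings were chosen with earlier results of these data known. Gene names and distances came from the RefSeq table of Release 6 plus ISO1 MT, laid on without conversion, and none of its coordinates is printed. That table gives no strand, so gene spans and ends replaced the planned gene starts. A unit ran from a His1 copy to the next, and a pseudogene took the place of a missing gene. A stretch after His3 counted only where the next His1 was within 2000 bp. Single-unit intervals were those within 10% of 5 kb. Named peaks were the 3 highest and 3 lowest strong, the 3 highest weak, the first, last, widest and narrowest. Named genes were the histone genes and a list of histone variants and factors on 2L. The scripts were tested on simulated positions. Alternatives covered the strong score, tolerance, fold anchor, release shift, overlap and list threshold. Python 3.11.15, numpy 2.4.6, pandas 2.3.3 and matplotlib 3.10.9 were used.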

Additional observations from a re-analysis of the deposited data

How the results depend on the processing

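Of 49 alternative values, 35 stayed close to the reported ones and 14 moved. Counts were judged by a fold limit that let 49 against 60 weak centres pass as close. The share of weak centres from 30 to 90% of an interval was judged by a binomial interval (92.5 to 100%). That binomial interval treats peaks of repeated copies as separate, so it measures no replicate spread. Strong peaks numbered 22 from a score of 40 and 20 from a score of 60. Of the 87 members, 25 scored at or above the median of the whole list. All 47 weak centres (100%) lay from 30 to 90% of the way between strong centres. Part of the remaining range is taken up by the strong peaks themselves. The share was 90.9% when folded from the start of the strong peak, 78.7% from its end and 92.3% with a fixed unit of 5000 bp. The placement on genes depends on the release shift. Strong centres on the His4-His3 pair numbered 22 without a shift, 21 at -250 bp, 14 at -500 bp and 1 at -1000 bp. In the other direction they numbered 22 at 250 bp, 20 at 500 bp, 1 at 750 bp and 0 at 1000 bp. Weak centres in His1, His2B and His2A numbered 60 without a shift, 38 at -250 bp, 35 at -500 bp and 20 at -1000 bp, and 49 at 250 bp, 38 at 500 bp, 32 at 750 bp and 23 at 1000 bp. The 750 bp shift was added after the data had been seen. Histone genes that overlap a peak ranged from 85 to 109 over all settings, so this count does not locate the peaks. All of its alternatives are among the 35 that stayed close. No paired analysis was possible because replicates have no values of their own in the file, and leaving out a replicate was likewise impossible. Depth is unknown, so what it limits could not be estimated.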

Other observations

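Of 15 listed histone variant genes and factors of histone gene expression, 2 lie on 2L, and the other 13 were not placed because they are on other chromosomes. The span of Clamp, which encodes the zinc finger protein known to bind the promoter between His3 and His4, overlapped 2 peaks, the higher with a score of 156.88. His3.3A, which encodes the replication-independent variant of histone H3 and lies outside the array, overlapped none. Both placements use unshifted release 6 positions. Over 2L outside the array, 14.8% of protein-coding genes overlapped a peak, so nothing is read from 1 of these 2 doing so. A peak over the span of Clamp gives no information on binding of its protein to the array.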
